A study of Mus musculus with 9 samples.

Results

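Pericytes wrap the capillaries of the islet, and stellate cells are the fibroblast-like cells of the pancreas that store vitamin A and lay down matrix when activated. The markers of these cells were followed here as 10 genes, chosen by name from 56748 genes in the deposited count table, and all 10 were found. They comprised the receptors and surface proteins Pdgfrb, Cspg4 and Notch3, the signalling regulator Rgs5, the contractile and cytoskeletal genes Acta2, Tagln, Myl9 and Des, and the matrix proteoglycans Dcn and Lum. Of the 10, 9 passed the filter on low counts and were tested, and Tagln did not pass. Wild-type C57BL/6 mice were the source of the primary islets, whose total RNA was sequenced with 3 libraries for each of 3 conditions. The control libraries came from untreated islets and the inflamed libraries from islets kept 48 hours with the inflammatory cytokines IL-1beta, TNF-alpha and IL-6. The particle libraries came from islets given the same cytokines plus PD-G-MSNPs, which are mesoporous silica nanoparticles coated with polydopamine. Islets given particles without cytokines were not analysed here, and the labels used here state no age of the mice.

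Pericytes and other mural cells are recruited to new vessels by platelet-derived growth factor B, which endothelial cells secrete and the receptor PDGFR-beta on the mural cell binds. Contact with endothelium through Notch ligands keeps mural cells mature, and their contractile proteins let them narrow the capillary, which in islets sets blood flow. Whole islets were measured, and levels are shares of the counts of a library. A lower level of a marker could thus come from fewer cells of a type, less RNA per cell or more RNA from other cells. These cannot be told apart.

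Total counts were 17832949 to 55865759 per library, and 1 count was worth 0.0186 to 0.0492 CPM (CPM being counts divided by the library total, scaled with TMM factors). Some libraries stood apart from others of their group. Particle replicate 2 held 35.7 CPM of 11 endothelial markers and 7942 CPM of 6 alpha cell markers, against 7.43 and 449 CPM in particle replicate 1 and 9.9 and 93.2 CPM in particle replicate 3. Control replicate 2 held 656 CPM of 27 stellate and fibroblast genes and 1434 CPM of 9 acinar markers, against 223 and 22.5 CPM in control replicate 1 and 335 and 191 CPM in control replicate 3. Ins2, the insulin gene that marks beta cells, took 238673 ± 6595 CPM (SD, n = 3) in control islets, against at most 20.5 CPM for any of the 10 markers in any library.

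The levels of the markers were first compared with each other in control islets on the deposited FPKM scale, which divides counts by gene length. Acta2 was at 3.91 ± 1.07 FPKM (SD, n = 3), Pdgfrb at 3.21 ± 0.608, Rgs5 at 2.51 ± 0.944, Notch3 at 1.86 ± 0.213 and Myl9 at 1.33 ± 0.410 FPKM. Below them were Cspg4 at 1.0 ± 0.276, Des at 0.875 ± 0.347, Lum at 0.639 ± 0.412, Dcn at 0.335 ± 0.461 and Tagln at 0.0707 ± 0.049 FPKM. The ranges of each gene and the next in this order overlapped. Within single control libraries the order could still hold, as all genes were measured in the same libraries. The ratio to Pdgfrb in control replicates 1 to 3 was 1.13, 1.33 and 1.15 for Acta2 and 0.498, 0.907 and 0.946 for Rgs5. Differences between neighbours were not tested. In inflamed islets the order of the levels was another one. Dcn was highest at 1.98 ± 0.760 FPKM, followed by Pdgfrb at 1.44 ± 0.105 and Acta2 at 1.12 ± 0.545 FPKM. Notch3, Rgs5 and Myl9 were at 0.210 ± 0.138, 0.118 ± 0.113 and 0.116 ± 0.116 FPKM.

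**Figure D1:**
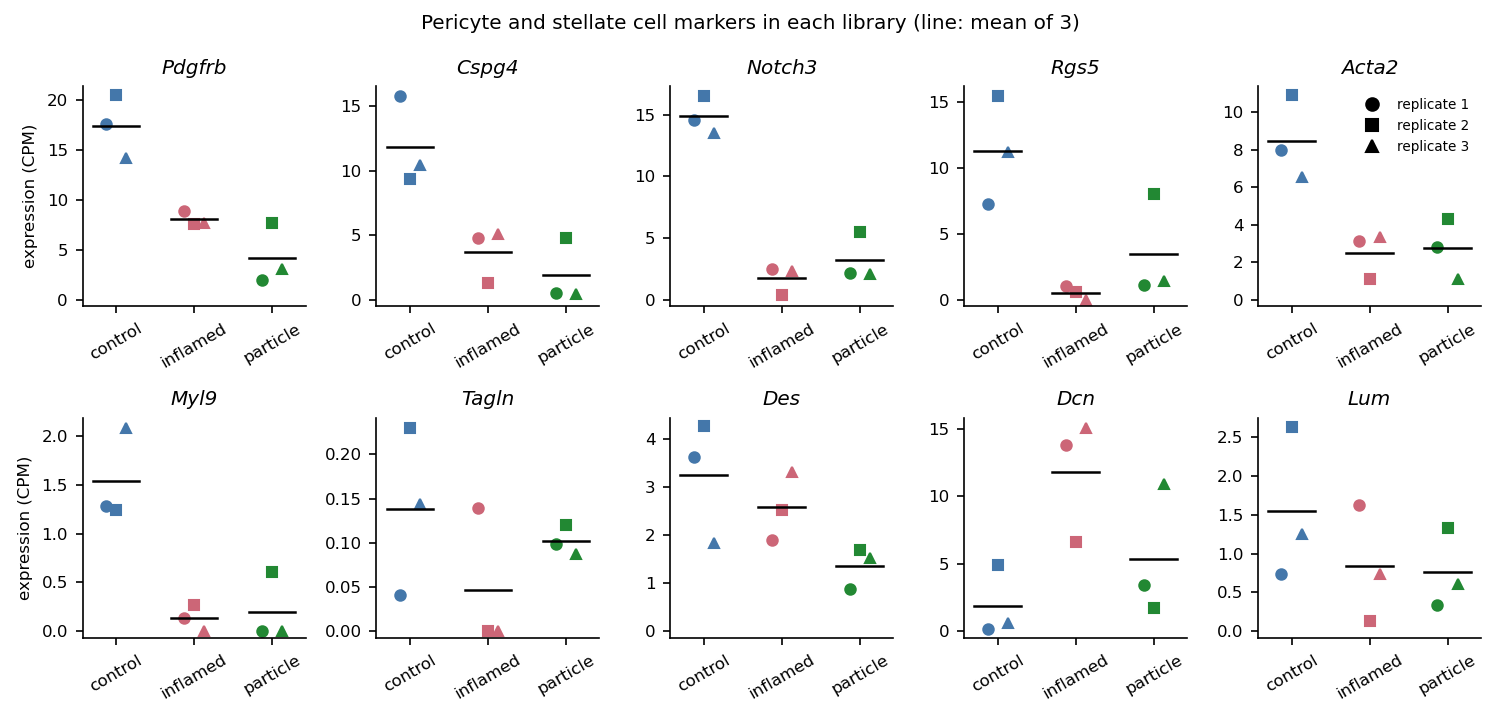
Expression of the 10 markers in CPM (vertical axes, each with its own range) in control, inflamed and particle islets. Each point is a library, shapes mark replicate numbers and lines mark means of 3. Notch3 lies between 13.5 and 16.5 CPM in control and between 0.413 and 2.46 CPM in inflamed libraries, and Dcn is the marker with its highest mean in inflamed islets.

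To measure the response to cytokines, inflamed islets were compared with control islets. Notch3, Rgs5 and Acta2 fell, no marker was called higher, and the other 6 tested markers did not pass the test. The 3 lower calls among 9 tested markers stand beside 19% of all 17276 tested genes called lower, 20.7% called higher and 39.6% called either way in this comparison (edgeR's quasi-likelihood test, adjusted p under 0.05). In 6 of the 9, every inflamed library was below every control library, as in 28.5% of all tested genes. The median log2 fold change of the 9 was -1.65, against 0.05 over all tested genes. Myl9 passed the filter on low counts through the control libraries, where it was high, so these counts describe the markers and do not support a direction.

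Notch3, a Notch receptor expressed mainly by vascular mural cells (ENSMUSG00000038146, GRCm39 chromosome 17 from 32339794 to 32385826), was at 14.6, 16.5 and 13.5 CPM in control replicates 1 to 3. In inflamed replicates 1 to 3 it was at 2.46, 0.413 and 2.36 CPM, and the groups did not overlap. The mean fell from 14.9 ± 1.53 to 1.75 ± 1.16 CPM (log2 fold change -3.07 with SE 0.59, edgeR adjusted p = 0.00244). Over all alternatives its adjusted p was 2.58e-07 to 0.00894. The antisense gene Gm17276 covers 21024 of the 46033 bases of Notch3 and held 358 counts over the 9 libraries, and without knowledge of the strand setting reads of the pair cannot be told apart.

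Pdgfrb, the receptor of platelet-derived growth factor B (ENSMUSG00000024620, chromosome 18 from 61178222 to 61218133), was at 17.6, 20.5 and 14.2 CPM in control and at 8.88, 7.61 and 7.73 CPM in inflamed libraries. All 3 inflamed libraries lay below the controls and close to each other, at 8.07 ± 0.702 against 17.4 ± 3.13 CPM, but the difference just missed the threshold (log2 fold change -1.11 with SE 0.41, adjusted p = 0.0523). It passed in 7 of 10 other settings, and without particle replicate 1 (0.0251) or particle replicate 2 (0.00502). Cspg4, the proteoglycan NG2 of pericyte surfaces (ENSMUSG00000032911, chromosome 9 from 56772317 to 56807154), was at 15.8, 9.38 and 10.4 CPM in control and at 4.84, 1.33 and 5.09 CPM in inflamed libraries. The groups did not overlap, and the difference was not called (log2 fold change -1.65 with SE 0.80, adjusted p = 0.122). Without particle replicate 2, a library outside the comparison that adds to the shared estimate of spread, Cspg4 was called (0.0142), as it was with DESeq2 (0.0498), in a fit of the compared groups alone (0.0197) and with limma on log2(FPKM + 1) (0.0124).

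Rgs5, a regulator that shortens G protein signalling and is among the most pericyte-restricted transcripts (ENSMUSG00000026678, chromosome 1 from 169483070 to 169523382), had 176, 335 and 311 counts in the controls. It had 23, 13 and 0 counts in the inflamed libraries, the 0 being in the most deeply sequenced library of all, where a count of 0 allows up to 0.0557 CPM. Rgs5 fell from 11.3 ± 4.07 to 0.555 ± 0.536 CPM (log2 fold change -4.45 with SE 1.19, adjusted p = 0.0143). Among the alternatives run, its call was lost only without a count filter (adjusted p = 0.084).

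Acta2, the smooth muscle actin that marks contractile mural cells and activated stellate cells (ENSMUSG00000035783, chromosome 19 from 34218490 to 34232990), was at 7.97, 10.9 and 6.57 CPM in control and at 3.12, 1.10 and 3.34 CPM in inflamed libraries. It fell from 8.48 ± 2.21 to 2.52 ± 1.23 CPM without overlap of the groups (log2 fold change -1.74 with SE 0.53, adjusted p = 0.0235). The call was lost without control replicate 2 (0.0781), without inflamed replicate 2 (0.0595) and with the replicate number as a block (0.0526). Of all 50-base windows of the longest Acta2 transcript, 0.352% also occur in transcripts of other genes, among them Actg1, the cytoplasmic gamma actin, which was at 599 ± 106 CPM in control and 1224 ± 24.8 CPM in inflamed islets. The part of reads from such shared windows in the Acta2 counts was not tested. Actg2, the other smooth muscle actin, was at 0.116 ± 0.101 CPM in controls and was not tested.

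Myl9, the regulatory light chain of smooth muscle myosin (ENSMUSG00000067818, chromosome 2 from 156617340 to 156623578), had 31, 27 and 58 counts in control and 3, 6 and 0 counts in inflamed libraries. The groups did not overlap at 1.53 ± 0.474 against 0.138 ± 0.138 CPM, but the difference was not called (log2 fold change -3.56 with SE 1.51, adjusted p = 0.0818). It passed without particle replicate 2 (0.0419), with DESeq2 (0.0421), in a fit of the compared groups alone (0.0271) and with limma on log2(FPKM + 1) (0.00185) and log2(FPKM + 0.1) (0.00976). Tagln, an actin-binding protein of smooth muscle (ENSMUSG00000032085, chromosome 9 from 45840917 to 45847356), had 1, 5 and 4 counts in control, 3, 0 and 0 in inflamed and 2, 3 and 2 counts in particle libraries. These islets therefore held Acta2 with hardly any Tagln, which is usually abundant in smooth muscle. Tagln overlaps Pcsk7 on the opposite strand by 108 of its 6440 bases and the antisense gene Gm48529 by 3627 bases, and their part in its low count was not tested. Des, the intermediate filament desmin of muscle and of quiescent stellate cells (ENSMUSG00000026208, chromosome 1 from 75336973 to 75345223), was at 3.63, 4.28 and 1.83 CPM in control and at 1.91, 2.52 and 3.31 CPM in inflamed libraries. These ranges overlapped (log2 fold change -0.33 with SE 0.46, adjusted p = 0.603).

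Acta2 and Myl9 are classic targets of serum response factor, which binds the CArG box, a run of A and T letters between CC and GG. Their promoters are shown because, of the promoters at hand, only these held it or a form that differs by 1 letter. RefSeq promoters (build GRCm38.p6, 250 bases before to 50 after the annotated start) were at hand for 6 of the 10 markers, Acta2, Cspg4, Des, Myl9, Notch3 and Rgs5. Capitals mark a CArG box, or the same with 1 G or C among its 6 middle letters, a form added after the sequences had been seen. The stretches run 5′ to 3′ on the strand of the gene, at chr19:34255374-34255493 on the minus strand (positions -120 to -1) and at chr2:156775284-156775403 on the plus strand (positions -180 to -61).
Acta2: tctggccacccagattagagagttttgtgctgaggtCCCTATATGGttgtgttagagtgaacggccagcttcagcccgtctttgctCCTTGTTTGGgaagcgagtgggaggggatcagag
Myl9: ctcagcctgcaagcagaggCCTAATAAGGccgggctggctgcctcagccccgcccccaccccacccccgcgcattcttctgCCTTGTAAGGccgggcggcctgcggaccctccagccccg
Myl9 held an exact CArG box from -161 to -152, as did 1.63% of all 32851 promoters of this length, with both strands searched. The version with 1 other letter was found in Acta2, from -84 to -75 and from -34 to -25, and in Myl9, from -99 to -90, and 8.5% of all promoters held it. Neither form was in the windows of Cspg4, Des, Notch3 and Rgs5. The RBPJ motif GTGGGAA of Notch signalling was in none of the 6 windows (6.38% of all promoters), and the TEAD motif CATTCC was in Acta2 alone of the 6 (14.7% of all promoters).

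Dcn and Lum encode decorin and lumican, small leucine-rich proteoglycans that bind collagen fibrils, and their genes lie 47.0 kb apart on chromosome 10. Dcn (ENSMUSG00000019929, from 97315471 to 97354005) was at 0.165, 4.92 and 0.646 CPM in control and at 13.8, 6.60 and 15.1 CPM in inflamed libraries. Every inflamed library was above every control, as in 28.3% of all tested genes, at 11.8 ± 4.58 against 1.91 ± 2.62 CPM, and the difference was not called (log2 fold change 2.65 with SE 1.02, adjusted p = 0.063). Without control replicate 2, the highest control, the log2 fold change of Dcn was 4.8 and it was called (adjusted p = 0.00561), and it was also called without particle replicate 3 (0.0466) and by limma on log2(FPKM + 1) (0.018) and log2(FPKM + 0.1) (0.0188). Lum (ENSMUSG00000036446, from 97400990 to 97408565) was at 0.743, 2.62 and 1.26 CPM in control and at 1.63, 0.138 and 0.743 CPM in inflamed libraries, with overlap (log2 fold change -0.88 with SE 0.87, adjusted p = 0.443). The paired proteoglycans thus differed in the sign of their fold change, and the difference between them was not tested.

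**Figure D2:**
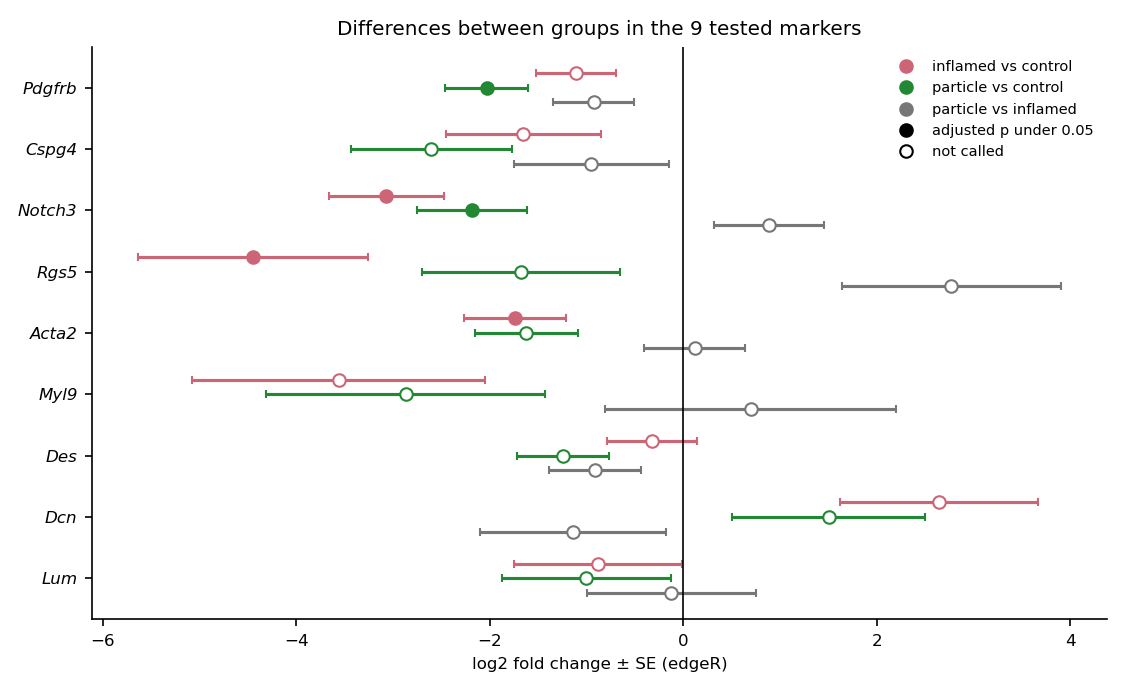
Log2 fold changes with standard errors (horizontal axis) of the 9 tested markers in the 3 comparisons. Filled points passed an adjusted p of 0.05. Rgs5 is at -4.45 in inflamed against control, at -1.68 in particle against control and at 2.77 in particle against inflamed islets, of which the first passed.

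To measure what the particles changed under cytokines, particle islets were compared with inflamed islets. None of the 9 tested markers passed, as 0% of all tested genes did with edgeR at an adjusted p of 0.05, and 2603 genes (15.1%) had an unadjusted p under 0.05. Rgs5 was at 1.13, 8.0 and 1.40 CPM in particle replicates 1 to 3, all above the inflamed maximum of 1.07 CPM, as in 8.87% of all tested genes. Its mean was 3.51 ± 3.89 against 0.555 ± 0.536 CPM (log2 fold change 2.77 with SE 1.13, adjusted p = 0.286), and particle replicate 2 supplied most of it. That library is the one with the high endothelial and alpha cell sums given above, and the part of these cells in the Rgs5 value was not tested. Des was at 0.886, 1.69 and 1.53 CPM in particle libraries, below all inflamed libraries, as in 6.82% of all tested genes (log2 fold change -0.92 with SE 0.47, adjusted p = 0.397). Pdgfrb was at 1.97, 7.68 and 3.05 CPM, and only particle replicate 2 reached the inflamed range (log2 fold change -0.93 with SE 0.42, adjusted p = 0.327).

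The remaining markers overlapped between particle and inflamed islets. Notch3 was at 2.17, 5.51 and 2.09 CPM in particle libraries (log2 fold change 0.89 with SE 0.57, adjusted p = 0.501). Cspg4 was at 0.541, 4.82 and 0.436 CPM (log2 fold change -0.95 with SE 0.81, adjusted p = 0.627), with 11 and 10 counts in particle replicates 1 and 3 against 120 in replicate 2. The NG2 level of particle islets thus rested on a single library. Acta2 was at 2.81, 4.30 and 1.13 CPM (log2 fold change 0.12 with SE 0.52, adjusted p = 0.945). Dcn was at 3.45, 1.73 and 10.9 CPM (log2 fold change -1.14 with SE 0.96, adjusted p = 0.626), and particle replicate 2, highest of the particle libraries in the other 9 markers, was lowest in Dcn. Myl9 had 0, 15 and 0 counts, where 0 allows up to 0.148 and 0.131 CPM, and Lum was at 0.345, 1.33 and 0.610 CPM, with adjusted p-values of 0.872 for Myl9 and 0.966 for Lum. The sign of the Acta2, Lum and Myl9 differences changed in some settings.

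Particle islets were also compared with control islets, a comparison that shares its control libraries with the first. Pdgfrb and Notch3 fell, and 0 markers were called higher, beside 5.92% of all tested genes called lower, 11.4% called higher and 17.3% called either way. Pdgfrb fell from 17.4 ± 3.13 to 4.23 ± 3.03 CPM (log2 fold change -2.03 with SE 0.43, adjusted p = 0.0102), a call that held in each of the alternatives run (adjusted p 2.82e-05 to 0.0468). Notch3 fell from 14.9 ± 1.53 to 3.25 ± 1.95 CPM (log2 fold change -2.19 with SE 0.57, adjusted p = 0.0259), which no longer passed when control replicate 1, 2 or 3 or particle replicate 1 or 3 was omitted (adjusted p 0.0557 to 0.105). In Acta2, Cspg4, Des and Myl9 all particle libraries lay below all control libraries without a call. Their log2 fold changes were -1.62 for Acta2, -2.60 for Cspg4, -1.24 for Des and -2.87 for Myl9, with adjusted p-values of 0.0569, 0.0548, 0.0945 and 0.189. With Pdgfrb and Notch3 these made 6 of 9 markers without overlap, against 20.6% of all tested genes lower and 22.9% higher in this way. Myl9 had 0, 15 and 0 counts in particle libraries and passed the filter through the controls, so the count is a description. Acta2, Cspg4, Des and Myl9 each passed in at least 1 other setting. Without particle replicate 2, Acta2 (adjusted p = 0.0218), Cspg4 (6.05e-04) and Myl9 (0.0207) were called as well, at log2 fold changes of -2.15, -4.63 and -8.39, and the last is set by a group with 0 counts. Rgs5 was not called by edgeR (log2 fold change -1.68 with SE 1.02, adjusted p = 0.281), though limma on log2(FPKM + 1) called it (0.0327), with particle replicate 2 at 8.0 CPM inside the control range of 7.27 to 15.4 CPM. Dcn (log2 fold change 1.5, adjusted p = 0.323) and Lum (-1.0, adjusted p = 0.454) overlapped between the groups, and without control replicate 2 Dcn was called higher (log2 fold change 3.65, adjusted p = 0.038).

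The markers were next set against Pdgfrb within each library, as a ratio of FPKM values that does not depend on how libraries are scaled. This measure was chosen after the values had been seen, and no test was made of it. The ratio of Notch3 to Pdgfrb was 0.561, 0.546 and 0.643 in control, 0.188, 0.0367 and 0.207 in inflamed and 0.745, 0.486 and 0.464 in particle libraries. The inflamed libraries lay below both other groups, and the particle libraries overlapped the controls. The ratio of Rgs5 to Pdgfrb was 0.498, 0.907 and 0.946 in control, 0.145, 0.0944 and 0 in inflamed and 0.693, 1.26 and 0.551 in particle libraries. Here too the inflamed libraries were lowest, and the 3 particle libraries, replicates 1 and 3 included, overlapped the controls. In particle replicates 1 and 3 Pdgfrb itself was at 1.97 and 3.05 CPM, against 14.2 to 20.5 CPM in controls. Rgs5 was at 1.13 and 1.40 CPM in these 2 libraries, against 7.27 to 15.4 CPM in controls. A lower Pdgfrb raises the ratio, so the overlap does not show that levels returned to those of controls. A ratio below all controls in all inflamed libraries occurred in 8.36% of all tested genes, and in Acta2, Notch3 and Rgs5, and in Myl9, which passed the filter only through the controls, among the 8 tested markers. A ratio above all inflamed libraries in all particle libraries occurred in 32.5% of all tested genes and in 2 of the 8 markers, Notch3 and Rgs5, a share near the background, while a ratio below them occurred in 0.11% and in 0 of the 8. In particle against control islets Des and Lum had ratios above all controls, as had 83.5% of all tested genes, and 0 of the 8 had ratios below them (0.191%). The ratio of Dcn to Pdgfrb was 0.0088 to 0.226 in control, 0.814 to 1.83 in inflamed and 0.211 to 3.36 in particle libraries. Dcn and Des had ratios above all controls in all inflamed libraries, as had 58.2% of all tested genes.

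**Figure D3:**
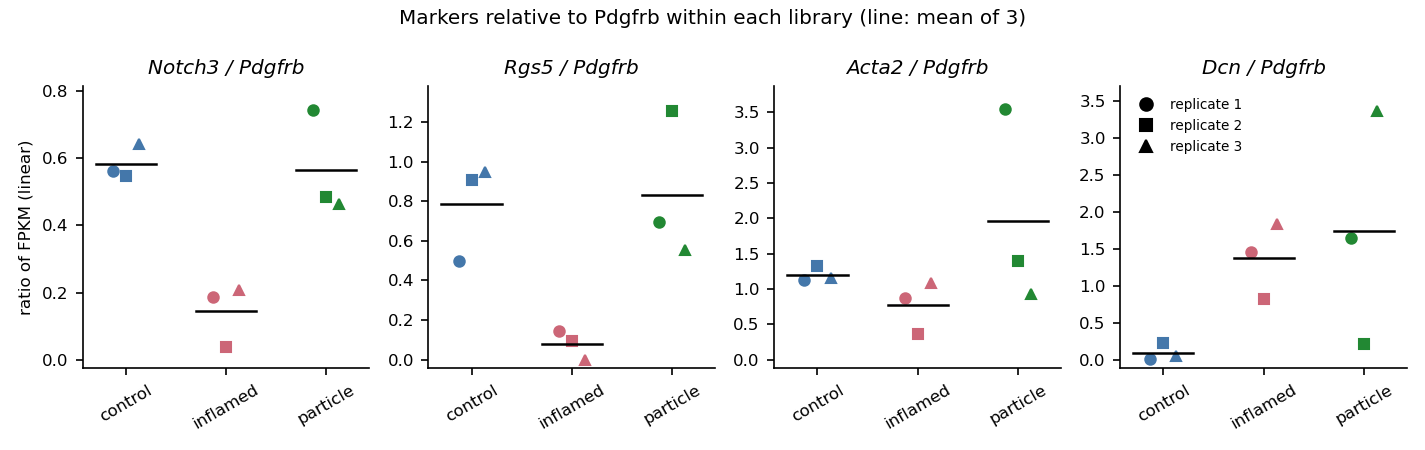
Ratio of the FPKM of Notch3, Rgs5, Acta2 and Dcn to that of Pdgfrb in the same library (vertical axes, linear) for the 3 groups, with lines at means of 3. For Notch3 the inflamed libraries are at 0.0367 to 0.207 and those of both other groups at 0.464 or above.

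Across the 9 libraries the markers did not vary as 1 block. Pearson's r of log2(CPM + 1) was 0.94 between Acta2 and Notch3, 0.92 between Cspg4 and Pdgfrb, 0.90 between Notch3 and Rgs5 and 0.89 between Myl9 and Rgs5. Dcn had a negative r with each of the other 8, down to -0.78 with Myl9 and -0.73 with Rgs5, and r was -0.06 between Dcn and Lum. These values describe 9 libraries that share group and depth and carry no test. Out of 12746 protein-coding genes averaging 1 CPM or more, the patterns most like Pdgfrb were those of Unc5c (r = 0.98), Cyhr1 (0.96) and B3gnt8 (0.96). Those most like Acta2 were Igfbp5 (0.99), an insulin-like growth factor binding protein, Loxl2 (0.97), a collagen cross-linking enzyme, and Pon2 (0.97). Those most like Dcn were Ell2 (0.96), Dhx15 (0.96) and Tnxb (0.96), of which Tnxb encodes the matrix protein tenascin-X.

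Other genes of these cells were read from lists, and no list was tested as a set. The counts of every list stand beside 20.7% of all tested genes called higher and 19% called lower in inflamed against control islets. Of 18 further pericyte genes 12 were tested, and in inflamed against control islets 1 rose and 2 fell. Anpep, an aminopeptidase, fell from 88.0 ± 7.35 to 36.7 ± 7.27 CPM (adjusted p = 0.0079), and Gucy1b1, a subunit of the nitric oxide receptor guanylate cyclase, fell from 3.78 ± 0.193 to 1.26 ± 0.984 CPM (adjusted p = 0.0447). Ebf1, a transcription factor of pericytes and B cells, rose from 0.266 ± 0.294 to 1.97 ± 0.602 CPM (adjusted p = 0.0368). Abcc9 and Kcnj8, which form the potassium channel of pericytes, were not called at 0.244 against 2.10 CPM and at 1.12 against 2.42 CPM. The median log2 fold change of the 12 was -1.17, against 0.05 over all tested genes. Abcc9, with 0, 16 and 0 counts in inflamed libraries, passed the filter on low counts through the controls. The median is therefore a description and does not support a direction.

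Genes of the contractile apparatus went in both directions. Of 18 listed smooth muscle and cytoskeletal genes 14 were tested, 5 rose and 0 fell. Csrp1, a muscle LIM protein, rose from 36.7 ± 8.81 to 140 ± 33.6 CPM (adjusted p = 2.68e-04), Flna, an actin crosslinker, from 46.2 ± 13.3 to 116 ± 12.7 CPM (adjusted p = 0.00239), and Vcl, which encodes vinculin, from 1.38 ± 1.09 to 18.8 ± 11 CPM (adjusted p = 0.00832). Srf, the serum response factor itself, and Tpm1, a tropomyosin, were the other 2 that rose. Those 5 are expressed in many cell types. Genes restricted to smooth muscle were low, with Myh11 at 1.84 CPM in controls, Cnn1 at 0.103 CPM and Myocd at 0.0821 CPM. Of 12 tested paralogs and relatives of the markers 5 rose and 1, the skeletal muscle actin Acta1, fell. Tagln2, a relative of Tagln, went from 193 ± 48.2 to 549 ± 162 CPM (adjusted p = 0.00187) and Actb, the cytoplasmic actin, from 439 ± 45.8 to 984 ± 121 CPM (adjusted p = 0.00213). Vim, the intermediate filament vimentin of mesenchymal cells and macrophages, rose from 32.3 ± 19.2 to 166 ± 47.6 CPM (adjusted p = 0.00189).

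Of 27 stellate and fibroblast genes 23 were tested, 4 rose and 2 fell. Called or not, 15 of the 23 had a negative and 8 a positive log2 fold change. Their median was -0.56, against 0.05 over all tested genes, which is a description. Vim, Fap, a protease of activated fibroblasts, Timp1, an inhibitor of metalloproteinases, and Mmp2, a gelatinase, rose. Fap went from 0.588 ± 0.268 to 5.82 ± 1.89 CPM (adjusted p = 0.0018) and Timp1 from 1.86 ± 1.60 to 9.31 ± 5.51 CPM (adjusted p = 0.0168). Col6a2 and Col6a3, chains of the microfibrillar collagen VI, fell, from 19.4 ± 8.41 to 2.99 ± 1.48 CPM (adjusted p = 0.0242) and from 24.4 ± 16.3 to 3.14 ± 2.68 CPM (adjusted p = 0.049). The fibrillar collagens Col1a1 and Col3a1 were not called at 7.84 ± 7.86 against 42.2 ± 30.2 CPM and at 4.02 ± 3.74 against 42.3 ± 38.9 CPM, with control replicate 2 highest. Of 10 tested basement membrane genes 2 rose and 2 fell. Lamc1 and Lamb2, laminin chains, rose to 36.1 ± 4.72 from 23.5 ± 2.15 CPM (adjusted p = 0.0261) and to 11.3 ± 2.78 from 5.65 ± 2.07 CPM (adjusted p = 0.0429), and Nid2, a nidogen that links laminin to collagen IV, fell from 1.41 ± 0.946 to 0.062 ± 0.107 CPM (adjusted p = 0.0342). Col4a1 was the other that fell.

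Ligands of the PDGF and Notch receptors were among the called genes. Of 5 tested PDGF genes 2 rose and 1 fell. Pdgfb, the ligand of PDGFR-beta, rose from 10.5 ± 2.04 to 39.7 ± 17.4 CPM (adjusted p = 0.00256) and Pdgfc, a ligand of PDGFR-alpha, from 0.188 ± 0.0918 to 1.73 ± 0.153 CPM (adjusted p = 0.00513), while Pdgfrl, a receptor-like protein, fell from 13.3 ± 0.875 to 1.41 ± 0.655 CPM (adjusted p = 0.00312). Of 13 tested Notch genes 3 rose and 6 fell. Jag2 and Dll4, Notch ligands, fell from 93.0 ± 5.17 to 10.9 ± 1.63 CPM (adjusted p = 6.69e-04) and from 16.0 ± 6.16 to 0.849 ± 0.557 CPM (adjusted p = 0.00107), while the ligand Dll1 was not called at 16.0 ± 9.08 against 13.4 ± 2.60 CPM. The ligand Jag1 and the effector Rbpj rose, and the receptor Notch2 rose from 1.67 ± 0.303 to 13.4 ± 1.59 CPM (adjusted p = 3.50e-04). Heyl, a Notch target of mural cells singled out after its values were seen, fell from 7.87 ± 1.13 to 0.505 ± 0.463 CPM (adjusted p = 0.0239). Of 17 TGF-beta pathway genes 6 rose and 4 fell, among them Acvrl1, a type I receptor, from 3.90 ± 0.968 to 24.1 ± 6.53 CPM (adjusted p = 2.10e-04), Tgfbi, a secreted target, from 8.65 ± 4.70 to 107 ± 29.8 CPM (adjusted p = 3.90e-04) and Tgfbr1, a receptor, from 30.5 ± 2.77 to 14.2 ± 0.770 CPM (adjusted p = 8.79e-04).

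**Figure D4:**
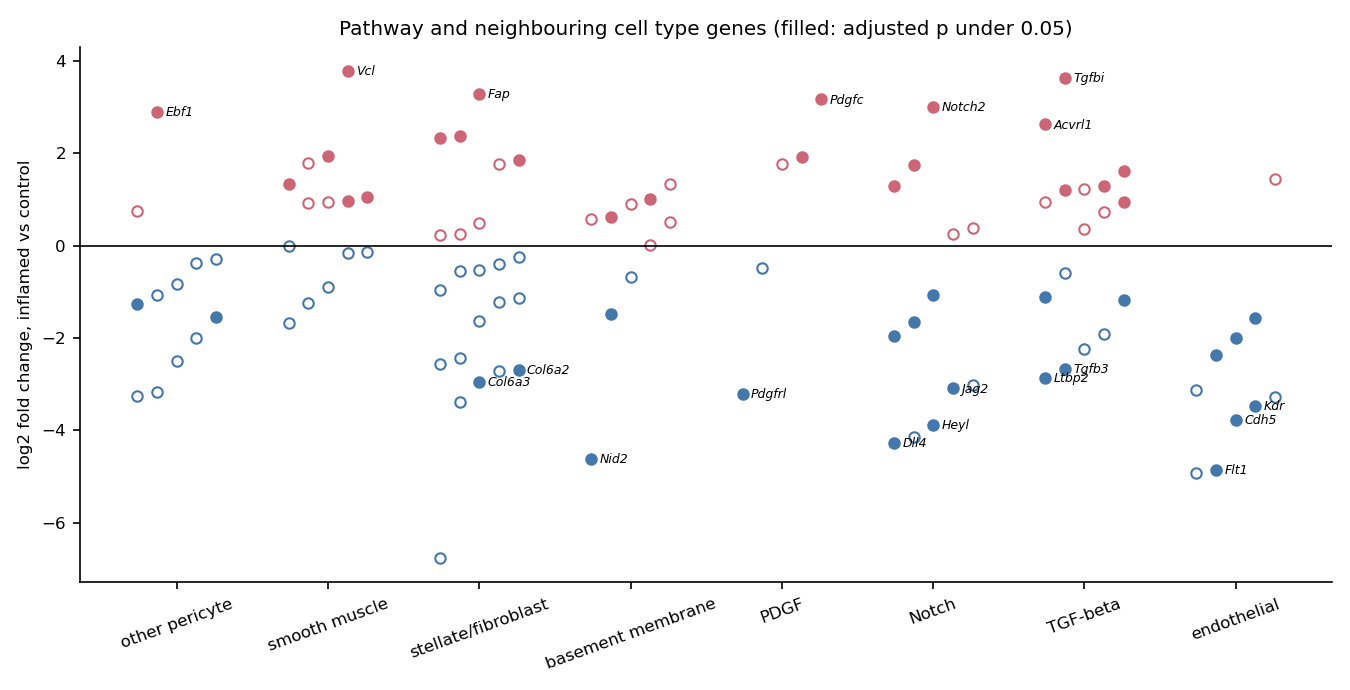
Log2 fold changes of inflamed against control islets (vertical axis) for the tested genes of 8 lists, 1 point per gene, filled where the adjusted p was under 0.05 and named where called with a size above 2.4. The Notch list holds 3 called genes above 0 and 6 below, and the endothelial list 0 and 6, beside 20.7% and 19% of all tested genes.

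In particle against inflamed islets 0 of the genes on these lists were called. The smallest adjusted p-values on any list were those of C1qc (0.0638) and C1qb (0.068), complement chains of macrophages, and of Acvrl1, at 6.20 ± 1.75 against 24.1 ± 6.53 CPM (adjusted p = 0.068). In particle against control islets the Notch list held 1 gene called higher and 3 lower, the further pericyte genes 0 and 1, and the stellate and fibroblast genes 1 and 0. Of the 23 tested stellate and fibroblast genes, 19 had a negative and 4 a positive log2 fold change there. Their median was -1.61, against 0.05 over all tested genes, which is a description. Over all tested genes 11.4% were called higher and 5.92% lower in that comparison.

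Markers of other islet cells moved in the same libraries. In inflamed against control islets 7 of 8 tested beta cell markers, 5 of 6 alpha cell markers and 2 of 3 delta cell markers fell, and 4 of 7 duct markers rose. Over all tested genes 19% were called lower and 20.7% higher. The alpha cell sum was 7474 to 27508 CPM in control, 113 to 476 in inflamed and 93.2 to 7942 CPM in particle libraries, with particle replicate 2 the highest of its group. The beta cell sum was 339921 to 358627, 123560 to 228952 and 87419 to 239225 CPM in the same order, and the delta cell sum 1088 to 2654, 118 to 333 and 50.7 to 1635 CPM. Of 10 tested endothelial markers 6 fell and 0 rose with cytokines, among them Esam, a junction protein, from 14.1 ± 1.67 to 3.50 ± 1.57 CPM (adjusted p = 0.00561), Egfl7 from 8.28 ± 3.78 to 1.59 ± 0.386 CPM (adjusted p = 0.0227), Flt1, a receptor of vascular growth factor, from 3.60 ± 3.03 to 0.105 ± 0.112 CPM (adjusted p = 0.026) and Pecam1 from 4.79 ± 3.12 to 1.61 ± 0.404 CPM (adjusted p = 0.0379). The sum of the 11 listed was 34.0 to 87.0 CPM in control, 7.11 to 12.5 in inflamed and 7.43 to 35.7 CPM in particle libraries, and Cldn5 was at 0 in all inflamed libraries. The 10 markers of pericytes and stellate cells summed to 61.8 to 86.0, 20.6 to 38.0 and 13.4 to 35.8 CPM in the same order. In both sums particle replicate 2 was the highest particle library. Macrophage markers went the other way, with 8 of 9 tested higher and a sum of 336 to 394 CPM in control, 3258 to 3415 in inflamed and 1963 to 3182 CPM in particle libraries, and Csf1r, their defining receptor, rose from 14.4 ± 2.14 to 40.3 ± 16.0 CPM (adjusted p = 0.0022). Most of that sum in treated islets was Cd74, the invariant chain of antigen presentation, at 26.8 ± 11.5 CPM in control, 2362 ± 55.3 in inflamed and 2063 ± 674 CPM in particle islets. In particle against control islets 2 of the 9 were called higher, Cd74 and Cd68, and 1 lower, C1qa, while Csf1r was at 14.8 ± 2.67 CPM in particle islets. Of all tested genes 11.4% were called higher and 5.92% lower there. Of 5 tested Schwann cell markers 1 was called lower and 0 higher in inflamed against control islets. Sox10, a transcription factor of Schwann cells, was not called at 17.2 ± 16.1 against 3.08 ± 2.34 CPM. The 7 listed Schwann markers summed to 63.1, 10.04 and 108 CPM in inflamed replicates 1 to 3. Inflamed replicate 2, lowest there, was also lowest among inflamed libraries in Notch3, Cspg4, Pdgfrb, Acta2, Dcn and Lum. Rgs5 was instead lowest in inflamed replicate 3 (0 CPM) and Des in inflamed replicate 1 (1.91 CPM). Myl9 was highest in inflamed replicate 2, at 0.275 CPM. The 9 acinar markers ranged from 5.96 to 3313 CPM over all libraries, and the part of these other cells in the marker values was not tested.

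**Figure D5:**
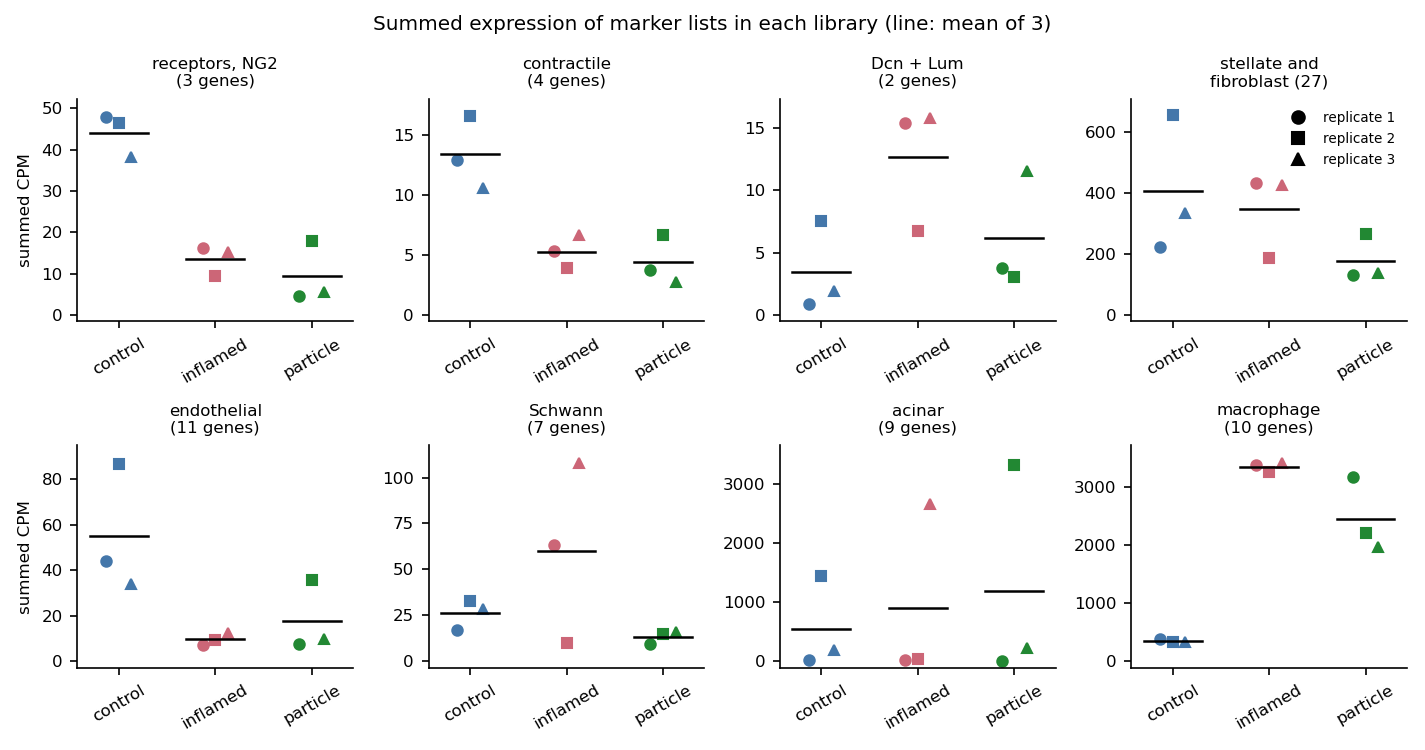
Summed CPM (vertical axes, linear) of 3 groups of the markers and of 5 lists of other genes in each library, with lines at means of 3. The 3 receptors and surface markers are at 38.1 to 48.0 CPM in control and at 18 CPM or below in all treated libraries, and the endothelial sum of particle replicate 2, 35.7 CPM, lies inside the control range.

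Several genes named from the lists overlap an expressed gene on the opposite strand, so their own share of the counts is uncertain. These were Nid2, Timp1, Vcl, Egfl7, Csf1r and Col4a1. Other genes on the same lists do so too, among them Tgfb3, Plvap, Ndufa4l2, S100b, Ogn, Mrtfa, Eng and Col4a2. Where nothing states that libraries came from separate mice or islet pools, p-values measure the spread between these libraries, which may be partly technical.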

How the data were processed

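Read counts per gene were deposited by the authors as whole numbers for 9 libraries, together with FPKM values (divided by gene length and scaled to the library, by the authors). HTSeq and DESeq2 are named as tools, and GRCm39 as build, per the submitters' processing notes. Versions and strand setting are not given in the sources used here. Groups and replicate numbers follow the sample titles. The untreated columns carry only the word for islet and were matched as the 3 that remained.

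The main test on deposited counts was edgeR 4.0.16 (R 4.3.3): filterByExpr (smallest count 10, 17276 genes kept), TMM factors, robust quasi-likelihood fits over all 9 libraries, Benjamini-Hochberg adjustment over all tested genes per comparison and a threshold of 0.05. The SE is the log2 fold change divided by the square root of F. A count of 0 allows up to 3 counts, for counting error only. The procedure was tested on simulated data. Alternatives used RLE factors, library totals, scaling without the 20 most abundant and mitochondrial genes, other filters, DESeq2 1.42.0, pairwise fits, a replicate block, limma 3.58.1 on log2(FPKM + 1) and log2(FPKM + 0.1), and each library left out. Markers and lists were chosen with earlier results of these data known. Named from each list were up to 3 genes with the smallest adjusted p in inflamed against control islets, the 3 most like Pdgfrb, Acta2 and Dcn, and defining markers. Other list genes in the text were singled out after their values were seen. Libraries of a group differed beyond counting noise (chi-square per degree of freedom 42.5 to 197).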

Additional observations from a re-analysis of the deposited data

How the results depend on the processing

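Of 512 recomputed fold changes of single markers, 452 kept direction and side of the threshold, 42 newly passed, 9 lost the call and 9 changed sign. Most of the 512 belong to differences that were not called and had no call to lose, so the total does not measure how steady the calls were. Notch3 in particle against control lost its call in 5 of the fits with 1 library left out. The causes were not tested. Beside 3 markers called in inflamed against control islets, 6 were called with DESeq2, 6 with fits of only the groups compared, 7 with limma on log2(FPKM + 1), 6 on log2(FPKM + 0.1), and 2 to 6 with 1 library left out (6 without particle replicate 2). In particle against control, where 2 were called, RLE factors gave 4, DESeq2 5, limma 6 and 5 at the 2 pseudocounts, and omissions 1 to 5. In particle against inflamed, 0 markers were called in any setting, while all genes called numbered 1 with library totals, 221 without a filter, 783 with DESeq2, 16 and 14 with limma, and 0 to 942 with omissions (942 without particle replicate 3). All genes called in particle against control numbered 2983 and 1115 to 4545 with omissions. In particle against inflamed, Acta2 reversed to -0.020 with the replicate block and Lum to 0.043 and Myl9 to -0.087 with limma on log2(FPKM + 0.1). With omissions Acta2 ranged from -0.36 to 0.49, Lum from -0.79 to 0.75 and Myl9 from -4.79 to 1.86.

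Library totals without TMM factors moved the median log2 fold change of all genes to 0.22 in inflamed and 0.32 in particle against control, and the share of higher calls from 52.1% to 61.9% and from 65.7% to 84.2%. In particle against control that share was 57.9% with RLE factors, 54.7% with DESeq2, and 42.7% and 50.3% with limma at pseudocounts 1 and 0.1, so the balance of directions turned in the first limma fit. In inflamed against control it was 44.7% and 46.0% with limma. Same-numbered libraries did not deviate together (r -0.24 to 0.12), so the numbers were not taken as pairs. With the replicate block, 2 markers were called in inflamed against control, 0 in particle against inflamed and 2 in particle against control, and 6116, 0 and 2598 genes. Depth limits Tagln, Myl9 and Lum most, with 0 to 58 counts per library.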
